A study of Mus musculus with 3 samples.

Results

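Among 33246 cell barcodes from 3 mouse livers, 488 were hepatocyte barcodes that held mitochondrial transcripts. A barcode was a member when it had at least 200 genes, at least 500 unique molecular identifiers (UMIs, each standing for 1 captured RNA molecule), and at least 2% of its UMIs from mitochondrially encoded genes, with no upper limit. It also had to draw at least 5% of its UMIs from 12 hepatocyte genes together (Alb, Apoa1, Apoa2, Ttr, Fabp1, Serpina1a to Serpina1e, Fgb and Ass1), to hold no UMI of Ptprc or Stab2, and to have under 50% haemoglobin UMIs. They are called mt-rich below. The 1545 barcodes that passed every other criterion but had under 2% mitochondrial UMIs are called mt-poor and serve as their comparison. Members were thus chosen by their mitochondrial share, the 12 hepatocyte genes, Ptprc, Stab2 and haemoglobin, so those values are given as a description only.

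All 3 mice received 500 mg/kg of paracetamol (acetaminophen), a drug that injures the liver at high dose. At 6 h, 1 mouse was infused with mesenchymal stromal cells engineered to carry bispecific polyvalent peptides (engineered MSC), 1 with native mesenchymal stromal cells (native MSC) and 1 with phosphate-buffered saline (PBS). The livers were taken after 4 days and dissociated, and their polyadenylated RNA was counted by droplet single-cell sequencing. With 1 library per treatment, no test between treatments can be made, and an uninjured liver is not among the groups.

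Hepatocytes are the parenchymal cells of the liver: they secrete albumin and most other plasma proteins, make urea and bile acids, and clear drugs. Their work is divided along the lobule, with drug oxidation strongest around the central vein and urea and glucose production strongest around the portal vein. They are packed with mitochondria, whose own small genome encodes subunits of respiratory complexes I, III, IV and V, while all other subunits come from nuclear genes. Paracetamol is oxidised by cytochrome P450 enzymes to a reactive product that depletes glutathione and binds mitochondrial proteins.

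The engineered MSC liver gave 468 mt-rich barcodes, the native MSC liver 18 and the PBS liver 2. As a share of barcodes past the floor of genes and UMIs this was 4.36% (exact 95% binomial interval 3.98 to 4.76%, of 10732) in the engineered MSC liver, 0.174% (0.103 to 0.275%, of 10344) in the native MSC liver and 0.0187% (0.00227 to 0.0677%, of 10669) in the PBS liver. These intervals, like all those below, cover counting error only. Members were thus found mostly in 1 of the 3 livers, and mt-poor hepatocyte barcodes followed the same order, with 1253, 266 and 26. In each liver the mt-rich barcodes were the smaller class. The number of hepatocytes in a liver and the share recovered by dissociation cannot be told apart in these data.

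The libraries held 62564254, 84950721 and 82247448 UMIs in the engineered MSC, native MSC and PBS livers. Between 39 and 46 barcode sequences recurred between any 2 libraries, and no barcode was a member in both. The members were shallow in the engineered MSC liver, with a median of 1222 UMIs and 698 genes, against 2122 UMIs and 1071 genes in the mt-poor barcodes. In the native MSC liver the order was the other way: a median of 8672 UMIs and 2072 genes in mt-rich barcodes, against 5153 UMIs and 1666 genes in mt-poor ones. The 18 native members ran from 614 to 32643 UMIs, and the 4 deepest held 55.4% of their UMIs. The 2 PBS members had 1083 and 1935 UMIs. Summed outside mitochondrial and haemoglobin genes, the members held 802807 UMIs in the engineered MSC liver, 173482 in the native MSC liver and 2947 in the PBS liver, so that 3 counts, used below as the floor for a gene at 0, equal 3.74, 17.3 and 1018 CPM. CPM here are the UMIs of a gene scaled to a summed total of 1e6 UMIs outside those genes. Little can be read from the PBS members below that level.

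The mitochondrial share ranged widely among members. In the engineered MSC liver its median was 4.25% and its highest value 70.7%; in the native MSC liver they were 13.4% and 33.0%, and the 2 PBS members had 2.12 and 2.48%. Of the engineered members 264 lay between 2 and 5%, 159 between 5 and 20%, and 45 at 20% or more; of the native members 3, 9 and 6 did. The threshold of 2% did not fall in a gap: in the engineered MSC liver 143 members lay at 2 to 3%, just inside it, and 257 barcodes at 1 to 2%, just outside. The other, larger set of barcodes in each library had a median mitochondrial share of 4.22% in the engineered MSC liver, 1.63% in the native MSC liver and 2.62% in the PBS liver. The mt-poor barcodes stood lower than these, at medians of 0.385%, 0.0800% and 0.162%. Across the 468 engineered members the mitochondrial share had a Spearman rho of -0.08 with UMIs and of -0.39 with the share of the 12 hepatocyte genes, values that share each barcode's UMI total as a denominator.

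**Figure D1:**
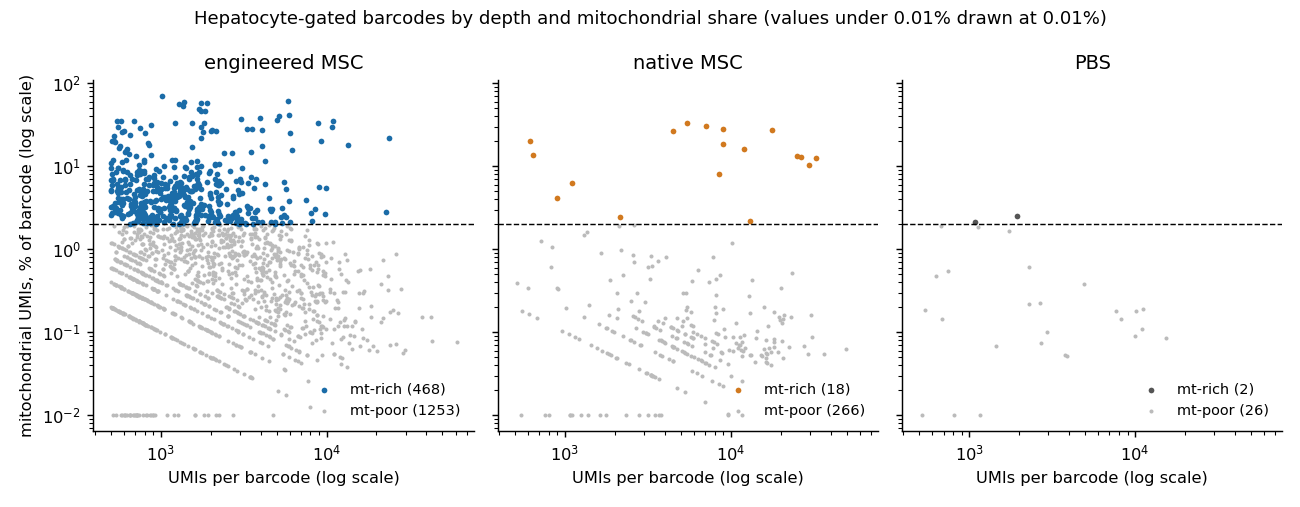
Each dot is 1 hepatocyte-gated barcode, with its UMIs on the x axis and the percentage of UMIs from mitochondrial genes on the y axis (both log scales, values under 0.01% drawn at 0.01%), for the engineered MSC, native MSC and PBS livers from left to right. Coloured dots above the dashed 2% line are the 468, 18 and 2 mt-rich barcodes and grey dots the 1253, 266 and 26 mt-poor ones, which reach the line without a gap in the engineered MSC liver.

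The transcripts that define these barcodes come from a compact genome in which reading frames overlap. The 2 overlaps between protein genes on the heavy-strand transcripts are shown because a read there cannot be given to 1 gene, so the counts of these 4 genes are uncertain. The overlaps lie on the plus strand of the mitochondrial chromosome at chrM:7927-7969 and chrM:10167-10173 in GRCm38, from GENCODE M21 transcripts, and the deposited counts were made on GRCm39. Capitals mark the bases that belong to both genes, starting at the start codon of the downstream gene.
mt-Atp8 and mt-Atp6: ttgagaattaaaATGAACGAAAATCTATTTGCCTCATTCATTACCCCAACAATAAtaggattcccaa
mt-Nd4l and mt-Nd4: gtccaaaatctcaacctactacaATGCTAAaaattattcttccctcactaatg

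Transcripts of all 4 mitochondrially encoded complexes were present in the members. In the engineered MSC liver, genes of complex IV (cytochrome c oxidase) gave 40.3% of the mitochondrial UMIs of mt-rich barcodes and complex I (NADH dehydrogenase) 26.1%. Complex V (ATP synthase) gave 22.9% and complex III 10.7%. The native members had nearly the same division, with 40.5% complex IV, 25.8% complex I, 24.8% complex V and 8.98% complex III. The 2 PBS members held 71 mitochondrial UMIs in all, of which 33.8% were complex IV and 47.9% complex I.

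The most abundant gene differed between the classes: mt-Atp6 in mt-rich and mt-Co3 in mt-poor barcodes of both livers. mt-Atp6, a subunit of the proton channel of ATP synthase, made up 22.8% of mitochondrial UMIs in mt-rich and 21.7% in mt-poor barcodes of the engineered MSC liver, and 24.7% and 23.6% in the native MSC liver. mt-Co3, a core subunit of cytochrome c oxidase, made up 20.0% in mt-rich and 22.4% in mt-poor engineered barcodes, and 18.0% and 26.4% in native ones. mt-Nd3, a small membrane subunit of complex I, was at 1.42% in mt-rich and 0.828% in mt-poor engineered barcodes, and at 1.14% and 0.600% in native ones. The intervals of mt-Co3 and mt-Nd3 did not meet between the classes in either liver, mt-Co3 being lower and mt-Nd3 higher in mt-rich barcodes. mt-Nd6, the one protein gene on the other strand, was at 0.116% in mt-rich and 0.157% in mt-poor engineered barcodes, and at 0.0737% in native mt-rich barcodes, with no UMI among the 2500 mitochondrial UMIs of native mt-poor ones.

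**Figure D2:**
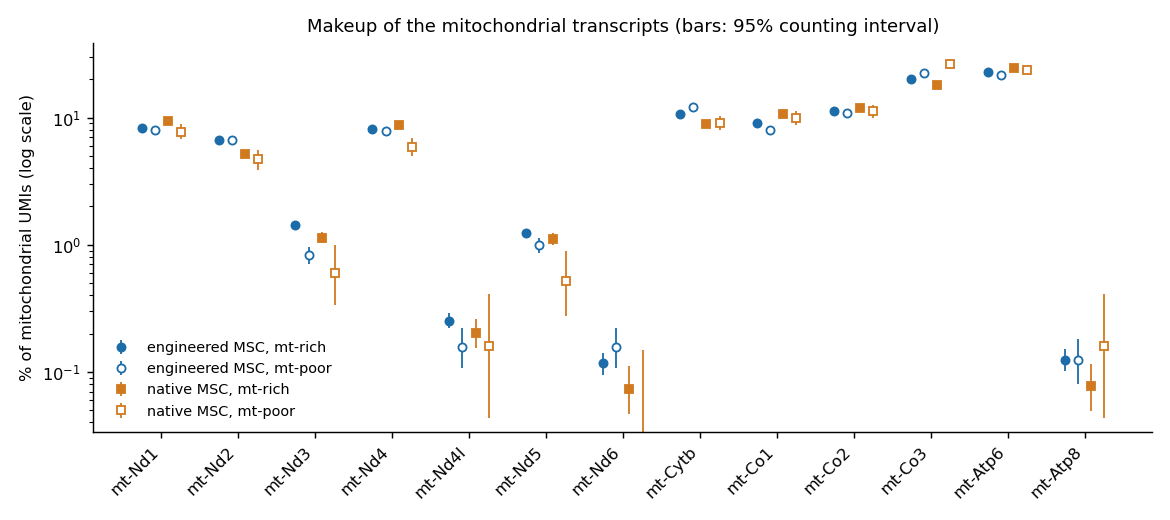
Share of each mitochondrially encoded gene in the mitochondrial UMIs of mt-rich (filled) and mt-poor (open) barcodes, in the engineered MSC liver (blue) and the native MSC liver (orange), on a log axis with exact 95% intervals. The marks of mt-Atp6 lie between 21.7 and 24.7%, those of mt-Co3 between 18.0 and 26.4% and those of mt-Nd3 between 0.600 and 1.42%, and native mt-poor mt-Nd6 is at 0, with only its interval drawn.

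The label was checked against 5 hepatocyte markers, of which Alb and Apoa1 belong to the gate. Alb, the main plasma protein, stood at 15374 CPM in mt-rich and 7840 CPM in mt-poor barcodes of the engineered MSC liver, at 35762 and 7705 CPM in the native MSC liver, and at 33254 and 9463 CPM in the PBS liver. Apoa1, the apolipoprotein of high-density lipoprotein, stood at 4741 and 3252 CPM in engineered, 13563 and 12985 CPM in native, and 36987 and 18588 CPM in PBS mt-rich and mt-poor barcodes. Both were higher in mt-rich barcodes of each liver, and both took part in the choice.

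Cps1, the first enzyme of the urea cycle, stood at 1085 CPM in mt-rich and 538 CPM in mt-poor engineered barcodes, at 2721 and 437 CPM in native ones, and was at 0 in the PBS members against 303 CPM in PBS mt-poor barcodes. Cyp2e1, the cytochrome P450 best known for oxidising paracetamol, stood at 891 and 460 CPM in engineered mt-rich and mt-poor barcodes, at 767 and 361 CPM in native ones, and at 0 and 82.5 CPM in PBS ones. Apob, the scaffold of very-low-density lipoprotein, stood at 1072 and 344 CPM in engineered mt-rich and mt-poor barcodes, at 2438 and 76.8 CPM in native ones, and at 1018 and 36.7 CPM in PBS ones. All 3 were higher in mt-rich than in mt-poor barcodes of the engineered and native MSC livers. In the edgeR quasi-likelihood fit described below, Apob passed the test (log2 fold change 2.94, SE 0.858, adjusted p = 0.0285). Cps1 (1.46, SE 0.789, adjusted p = 0.413) and Cyp2e1 (0.66, SE 0.709, adjusted p = 0.680) did not.

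Hepatocyte RNA was also found in barcodes of other cells, so shares of barcodes with a UMI were set against those of Ptprc-positive (leukocyte) barcodes after thinning every barcode to 1000 UMIs. The Ptprc-positive barcodes were limited to those with under 5% of UMIs from the 12 hepatocyte genes. In the engineered MSC liver this kept 283 of 468 mt-rich, 933 of 1253 mt-poor and 5210 of 5348 Ptprc-positive barcodes, and left out 185, 320 and 138. Cps1 was then seen in 51.9% of mt-rich, 41.1% of mt-poor and 12.7% of Ptprc-positive barcodes; before thinning the shares were 66.7, 71.6 and 42.1%, at median depths of 1222, 2122 and 4093 UMIs. Apob was seen in 47.3% of mt-rich, 30.8% of mt-poor and 14.7% of Ptprc-positive thinned barcodes (61.3, 64.1 and 46.4% before thinning). Both markers stood above the level in these leukocyte barcodes in both hepatocyte classes. The classes were chosen for high and the leukocyte barcodes for low hepatocyte RNA, so this order is a description only. Glul, the glutamine-making enzyme found around central veins, was seen in 8.13% of mt-rich, 8.47% of mt-poor and 7.26% of Ptprc-positive thinned barcodes (14.1, 18.1 and 29.9% before thinning), with overlapping intervals (5.22 to 11.9%, 6.76 to 10.4% and 6.57 to 7.99% after thinning).

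The nuclear RNA Malat1 set the hepatocyte barcodes apart from leukocyte barcodes. Malat1 had a UMI in 53.2% of engineered mt-rich and 52.8% of mt-poor barcodes, against 99.4% of Ptprc-positive ones, and after thinning in 35.7%, 24.3% and 97.9%. The 12 hepatocyte genes made up at most 16.4% of the UMIs of any engineered member, 15.2% of any native and 12.9% of any PBS member, and no member reached 20%. Alb ranged among engineered members from 2.50 to 98.3 UMIs per 1000 UMIs outside mitochondrial and haemoglobin genes, with a median of 13.1, and among native members from 2.91 to 67.0, with a median of 36.9. Fabp1, the fatty acid-binding protein of the hepatocyte cytoplasm, went the other way, with a median of 26.4 per 1000 in engineered and 3.63 per 1000 in native members. The part of RNA from outside the cell in these levels was not tested.

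Markers of other cell types, counted present when a barcode had at least 3 UMIs from at least 2 genes of 1 list, were found in 128 of 468 engineered, 16 of 18 native and 2 of 2 PBS members. The mt-poor barcodes were alike, with 358 of 1253, 258 of 266 and 23 of 26. For the macrophage and monocyte list, 17 of 17 genes had UMIs in the engineered members and 15 of 17 in the native members, summing to 0.0779% and 0.256% of UMIs, and to 0.431% in the PBS members. Much of the native sum was 403 UMIs of Spp1 (osteopontin), while Itgam and Ms4a7 were at 0 there. The neutrophil list made up 0.0216% of UMIs in engineered and 0.391% in native members. Most of these UMIs were Lcn2 (lipocalin, also an acute phase product of hepatocytes), with 112 and 735. In native members 11 of 12 neutrophil genes had UMIs, among them S100a9 (31) and S100a8 (15), while the granule gene Ltf was at 0. Neutrophil markers were met in 15 of 18 native members and in 1 of 468 engineered ones. The other barcodes of these libraries met the same rule in 84.6% (native) and 8.91% (engineered). The rule used UMIs without thinning, and the members had medians of 8672 (native) and 1222 UMIs (engineered). The bile duct list was carried by Clu and Spp1, and its genes Krt19, Krt7, Epcam and Cftr were at 0 in all members. Sox9 of that list had 9 and 5 UMIs and Pkhd1 12 and 4 in engineered and native members. Sinusoidal endothelial markers were met in 22 of 468 engineered members and in 0 of 18 native ones. That list summed to 392 CPM in mt-rich and 131 CPM in mt-poor engineered barcodes. In native ones the order was the other way, at 23.1 and 35.0 CPM, on 4 member UMIs. In the comparison with mt-poor barcodes below, a log2 fold change above 0 was found for 9 of 9 tested sinusoidal genes (median 1.35), 4 of 4 stellate cell genes (1.41), 5 of 5 Kupffer cell genes (0.86), 3 of 4 bile duct genes (1.72), 10 of 14 macrophage genes (0.22) and 0 of 7 neutrophil genes (-0.26), and none passed the test. Over all 8288 genes of that comparison, 4047 were above 0 and 3% rose. The part of the marker genes in the results below was not tested. The genes that rose and the main gene groups are also given without these barcodes in the engineered MSC liver.

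Zonation marks were counted per barcode. Of the 468 engineered members, 153 held UMIs of pericentral Cyp2e1 only, 71 of periportal Cyp2f2 only, 66 of both and 178 of neither. Of the 18 native members 11 held Cyp2e1 only, 1 Cyp2f2 only, 3 both and 3 neither, and the 2 PBS members held neither. Across engineered members the summed pericentral and periportal lists had a Spearman rho of -0.42 (n = 468 barcodes of 1 library). After thinning, Cyp2f2 was seen in 22.6% of engineered mt-rich, 15.2% of mt-poor and 5.03% of Ptprc-positive barcodes (29.3, 36.0 and 18.6% before). For Hal, histidine ammonia lyase of periportal cells, the thinned shares were 18.7, 24.3 and 1.75% (25.9, 40.2 and 8.10% before).

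To see what else differed between the classes, UMIs were summed per library and class and mt-rich was tested against mt-poor with edgeR's quasi-likelihood test, with the library as a block. The fit used the engineered and native MSC livers; the PBS liver, with 2 members, was left out. It has 1 residual degree of freedom and borrows its spread from all genes, so its p-values measure the spread between 2 libraries. Of 8288 genes tested, 249 rose in mt-rich barcodes (3%) and 1 fell (0.0121%) at an adjusted p under 0.05, and 1103 had an unadjusted p under 0.05. The log2 fold changes of the 249 genes ran from 1.90 to 4.11, with a median of 2.42. All 249 were higher in mt-rich barcodes of both livers, with a median log2 ratio of CPM of 1.67 in the engineered and 4.12 in the native MSC liver, where all tested genes had medians of 0.15 and 0.52. Against the other barcodes of the same library, 95 of the 249 (38.2%) were higher in the engineered members and 203 (81.5%) in the native members, where 41.7% and 47.2% of all tested genes were. The 249 genes were chosen for high values in these same member sums, so these shares are a description only. Without the barcodes that held markers of other cells, 244 of the 249 stayed above 0 in the engineered MSC liver, with a median of 1.26. Of all tested genes 4925 of 8265 were above 0 there, with a median of 0.13. The 249 genes were chosen on a set that holds these same barcodes, so their sign is a description only. Removing the marker barcodes left 2 native members and no fit. With a limit of 20% on the mitochondrial share, which left 423 engineered and 12 native members, 59 genes were higher. At 5% or more, with the barcodes below it counted as mt-poor, 834 were higher and 195 lower.

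Most of the largest fold changes rested on few UMIs. The low-count filter and the 20 CPM floor for naming could be met by the mt-rich sums alone. Genes scarce in mt-poor barcodes, such as Abcc6 and Robo1, passed in this way, so their rises are a description only. With no low-count filter 70 of 16728 genes rose. Abcc6, an ATP-binding cassette transporter of the hepatocyte membrane, had 24 UMIs (29.9 CPM) in mt-rich and 17 (3.67 CPM) in mt-poor engineered barcodes, and 20 (115 CPM) and 2 (1.05 CPM) in native ones (log2 fold change 4.02, SE 0.676, adjusted p = 1.95e-05). These UMIs came from 22 of 468 engineered and 9 of 18 native members. Robo1, an axon guidance receptor, had 12 and 8 UMIs in engineered mt-rich and mt-poor barcodes and 23 and 4 in native ones (4.11, SE 0.700, adjusted p = 1.95e-05), but 10 of its 12 engineered UMIs came from 1 barcode. Ptprd, a receptor tyrosine phosphatase, had 130 UMIs (162 CPM) in mt-rich and 172 (37.1 CPM) in mt-poor engineered barcodes, and 60 (346 CPM) and 9 (4.70 CPM) in native ones (3.50, SE 0.666, adjusted p = 0.000157), from 44 of 468 and 11 of 18 members. For all 3 genes the CPM of mt-rich barcodes was the higher in both livers. The other genes with the largest rises were Cpe, Tenm3, Lncppara, Airn, Gpr39, Ror1 and Lamc1, at log2 fold changes of 3.57 to 3.95 and at most 11 UMIs each in the engineered members; all 17 native UMIs of Cpe came from 1 barcode. Among the 249 genes, 3 drew over 50% of their engineered UMIs and 14 over 50% of their native UMIs from a single barcode.

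The 249 genes spanned a median of 111 kb of genome (240 with a span in GENCODE M21), against 24.9 kb for all tested genes and 8.40 kb for the 160 genes with an unadjusted p under 0.05 that were lower in mt-rich barcodes. Their longest transcripts had medians of 5.67, 3.24 and 1.65 kb. The part of gene length in the result was not tested. The 1 gene that fell, Erhrt-ps, a pseudogene named after its value was seen, had 0 UMIs in both member sums against 53 and 25 UMIs in mt-poor barcodes of the engineered and native MSC livers (adjusted p = 0.0127). In the engineered MSC liver it was at least 3.06-fold lower over the floor of 3 counts in the members' sum, and in the native MSC liver the floor was above the mt-poor level.

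Secreted blood proteins and their partners stood out among the gene groups. Of 30 tested genes of complement and coagulation, 7 rose and 28 had a log2 fold change above 0 (median 1.36, against -0.03 over all tested genes). Of all 8288 tested genes 3% rose and 4047 were above 0. The count that rose was 0 with no low-count filter, 1 without the block, 18 at a mitochondrial share of 5% or more and 20 without TMM factors. Over all tested genes it was 70 of 16728, 60 of 8288, 834 of 8076 and 450 of 8288, in the same order. Without barcodes holding other-cell markers, the median log2 ratio in the engineered MSC liver was 0.84, against 1.19 with them. C4b, the complement protein cleaved in the classical pathway, had 127 CPM in mt-rich and 47.9 CPM in mt-poor engineered barcodes, and 404 and 19.9 CPM in native ones (2.45, SE 0.631, adjusted p = 0.00914). F5, coagulation factor V, had 78.5 and 32.1 CPM in engineered mt-rich and mt-poor barcodes, and 334 and 9.41 CPM in native ones (2.71, SE 0.642, adjusted p = 0.00398). Cfb, C1s1, Masp1 and Pros1 were among the others, at 2.16 to 2.36. C3, the central complement protein, had 1019 and 369 CPM in engineered mt-rich and mt-poor barcodes and 4940 and 178 CPM in native ones, and missed the threshold (2.76, adjusted p = 0.0648). Outside this group, Cp, the copper-carrying ferroxidase ceruloplasmin, had 263 and 90.4 CPM in engineered mt-rich and mt-poor barcodes, and 2064 and 52.3 CPM in native ones, and rose (3.05, SE 0.825, adjusted p = 0.0149) as 1 of 26 acute phase genes.

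Bile acid genes and transporters of the bile canaliculus gave 7 of 19 tested genes that rose (median 1.42), where 3% of all tested genes did. The count was 1 without the block, 2 of 20 with no low-count filter and 2 of 19 at a mitochondrial share of at most 20%. All tested genes gave 60 of 8288, 70 of 16728 and 59 of 7910 in the same order. Without barcodes holding other-cell markers, the median log2 ratio in the engineered MSC liver was 0.62, against 1.02 with them. Abcc2, the canalicular exporter of conjugated drugs and bilirubin, had 172 CPM in mt-rich and 49.2 CPM in mt-poor engineered barcodes, and 697 and 16.7 CPM in native ones (3.16, SE 0.706, adjusted p = 0.00197). Abcb11, the bile salt export pump, had 172 and 50.9 CPM in engineered mt-rich and mt-poor barcodes, and 294 and 18.8 CPM in native ones (2.44, SE 0.611, adjusted p = 0.00686). Cyp7a1, the rate-limiting enzyme of bile acid synthesis, rose as well (2.10, adjusted p = 0.0206), although 46.6% of its engineered and 51.0% of its native UMIs came from 1 barcode each. Cyp7b1, Abcb4, Abcc3 and Slco1a4 rose by 1.90 to 2.90, and 7 of the 19 genes had a log2 fold change below 0. In the paracetamol metabolism list 5 of 24 rose (median 0.75; 1 without the block, and an engineered median log2 ratio of 0.33 without marker barcodes against 0.94 with them): the transporters Abcc2 and Abcc3, the glucuronosyltransferases Ugt2b34 and Ugt2b35, and Por, the electron donor of the cytochrome P450 enzymes.

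Receptors for growth factors and cytokines made up another group, with 7 of 16 tested genes higher (median 1.19), where 3% of all tested genes were. The count was 1 with DESeq2, 1 without the block and 3 at a mitochondrial share of at most 20%. All tested genes gave 75 of 8288, 60 of 8288 and 59 of 7910 in the same order. Without barcodes holding other-cell markers, the median log2 ratio in the engineered MSC liver was 0.32, against 0.94 with them and 0.13 over all tested genes. Egfr, the epidermal growth factor receptor that hepatocytes express strongly, had 417 UMIs (519 CPM) in mt-rich and 524 (113 CPM) in mt-poor engineered barcodes, and 89 (513 CPM) and 21 UMIs in native ones, with 0 and 147 CPM in PBS ones (3.38, SE 0.730, adjusted p = 0.00124). It was seen in 118 of 468 engineered and 11 of 18 native members. Met, the hepatocyte growth factor receptor, Erbb3, Insr, the insulin receptor, Il6ra and Il6st, the chains of the interleukin 6 receptor, and Il1r1 rose by 2.12 to 2.63.

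RNAs kept in the nucleus formed a further group. All 7 tested RNAs of this list, which also holds the mostly cytoplasmic Norad, had a log2 fold change above 0 (median 1.35), and 2 rose. Over all 8288 tested genes, 4047 were above 0 and 3% rose. Neat1, the scaffold of nuclear paraspeckles, had 106 UMIs (132 CPM) in mt-rich and 120 (25.9 CPM) in mt-poor engineered barcodes, and 98 (565 CPM) and 35 (18.3 CPM) in native ones (3.25, SE 0.656, adjusted p = 0.000371). Kcnq1ot1, an imprinted antisense RNA, rose by 2.42 (adjusted p = 0.0472) on 10 and 7 member UMIs, and its count cannot be told from that of its overlapping gene where strand is not used. Malat1 had 1274 and 402 CPM in engineered mt-rich and mt-poor barcodes and 2507 and 190 CPM in native ones (2.33, adjusted p = 0.0896), and so did not pass.

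Nuclear genes of the respiratory chain lay on the other side without passing the test. All 66 tested subunits of complexes I to V encoded in the nucleus had a log2 fold change below 0 (median -0.78). Over all tested genes 51.2% were below 0. A fit without TMM scaling factors gave 61 of 66 below 0 and moved the median of all tested genes to 0.29. In the main fit none of the 66 had an unadjusted p under 0.05, and the lowest adjusted p was 0.402. In each liver 61 of 66 were lower in mt-rich barcodes, and at a mitochondrial share of 5% or more 3 of 66 fell. Among all genes tested at that share 195 of 8076 fell. By complex the medians were -0.78 for 27 genes of complex I, -0.73 for 14 of complexes II and III, -0.75 for 11 of complex IV and -0.95 for 14 of complex V. Atp5f1a, the alpha subunit in the catalytic head of ATP synthase, had 1076 CPM in mt-rich and 1241 CPM in mt-poor engineered barcodes, and 427 and 1026 CPM in native ones, with 339 and 669 CPM in PBS ones (-1.08, adjusted p = 0.554). Ribosomal protein genes were also mostly below 0 (81 of 82, median -0.47), but 54 of 82 without TMM factors.

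Other mitochondrial groups had no common direction that passed. Over all 8288 tested genes 3% rose and 51.2% were below 0. Of 24 fatty acid oxidation genes 1 rose and 19 were below 0 (median -0.57). The riser was Pdk4, which blocks glucose oxidation in fasting, at 2.26. None of 13 mitochondrial biogenesis, 23 Nrf2 and glutathione, 24 urea cycle and amino acid, 15 p53 and damage, or 28 cell cycle genes passed in either direction, with medians of -0.02, -0.49, -0.89, 0.19 and -0.38. Pericentral genes had a median of 0.46 with 2 of 19 higher, Rnf43 and Znrf3, which remove Wnt receptors. Periportal genes had a median of -0.26 and 0 of 19 called.

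**Figure D3:**
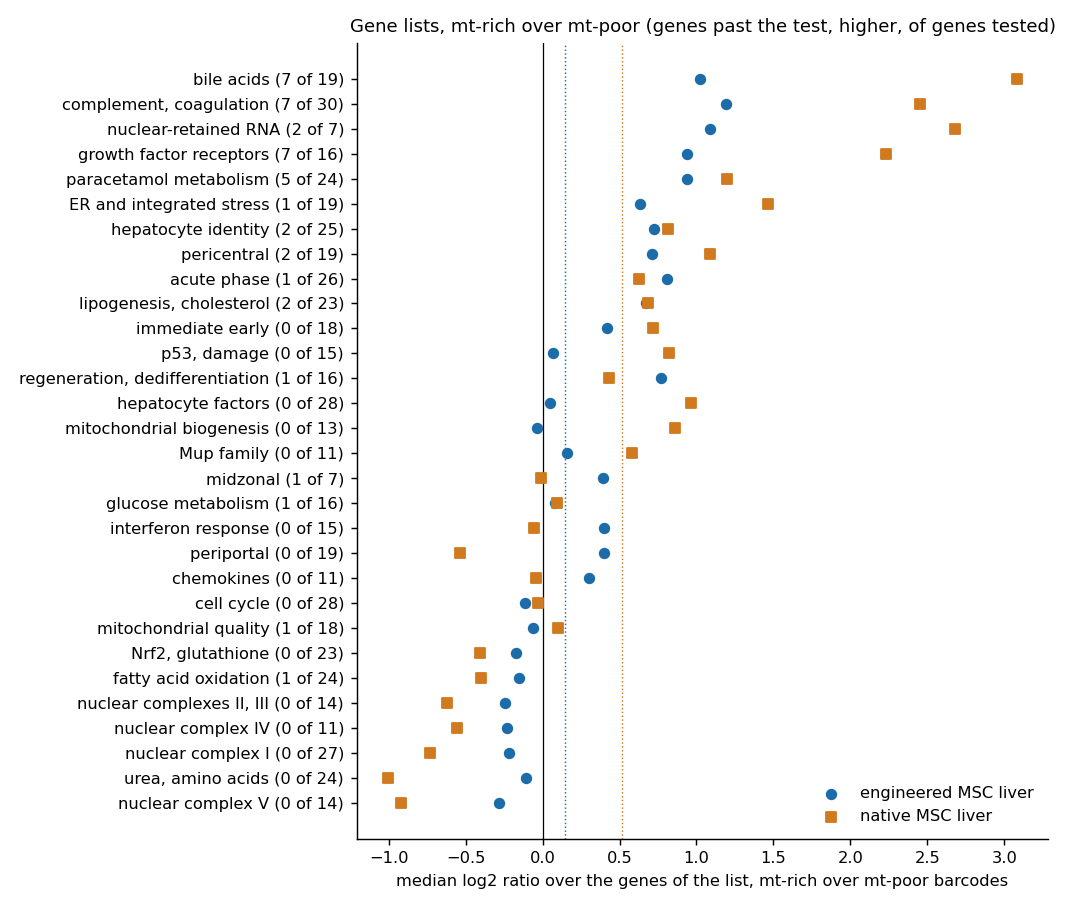
Median log2 ratio of CPM of the genes in each list, mt-rich over mt-poor, in the engineered MSC liver (blue circles) and the native MSC liver (orange squares); the dotted lines mark the medians of all tested genes, 0.15 and 0.52. Numbers beside each name are the genes that passed the test upward, of those tested. Bile acid and complement lists lie to the right in both livers, nuclear respiratory lists to the left.

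Within the engineered MSC liver these differences were larger at higher mitochondrial shares. Summed complement and coagulation genes stood at 5021, 6682 and 16712 CPM in members with 2 to 5%, 5 to 20% and 20% or more mitochondrial UMIs, against 3428 CPM in mt-poor barcodes. The nuclear-retained RNAs stood at 863, 1787 and 5404 CPM against 586 CPM, which is 9.22 times (95% counting interval 8.36 to 10.1) at the top. Nuclear complex I genes stood at 10966, 10163 and 6557 CPM against 11711 CPM, and Nrf2 and glutathione genes at 47865, 46266 and 19713 CPM against 50208 CPM. The order of the 3 bands was the same in each of these groups, upward in the first pair and downward in the second. The native bands, of 3, 9 and 6 barcodes, did not all keep this order: complement and coagulation genes stood at 25653, 14425 and 24161 CPM and nuclear-retained RNAs at 1919, 3048 and 6056 CPM.

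Single hepatocyte genes also differed between the engineered bands. Alb stood at 10998, 14313 and 40579 CPM, Apob at 610, 1071 and 3447 CPM and Cyp2e1 at 579, 803 and 2718 CPM in the 3 bands. Egfr stood at 197, 544 and 2109 CPM. In the native bands Alb stood at 44460, 30662 and 51872 CPM and Apob at 3007, 1932 and 4185 CPM, with the middle band lowest. Fabp1 was lower in each further engineered band, with 32459, 26300 and 16582 CPM, as was Ftl1, the light chain of ferritin, with 15114, 14016 and 3512 CPM. Alb and Fabp1 belong to the gate. The pericentral list stood at 5197, 4812 and 13755 CPM, against 5449 CPM in mt-poor barcodes, so only the top band was above them. The ranges of single barcodes are wide and each liver is 1 library, so no test was made.

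**Figure D4:**
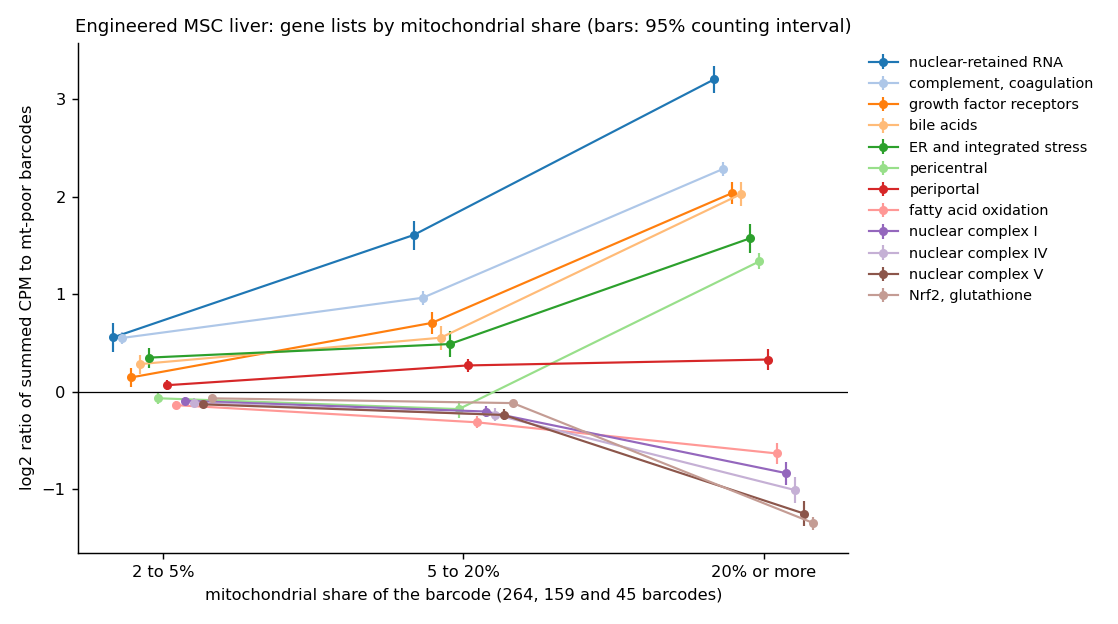
Log2 ratio of the summed CPM of a gene list to that in the mt-poor barcodes of the engineered MSC liver, for members with 2 to 5%, 5 to 20% and 20% or more mitochondrial UMIs (264, 159 and 45 barcodes), with 95% counting intervals. Lists for nuclear-retained RNA, complement, receptors and bile acids are higher in each further band, the first reaching 3.20, and those for nuclear complexes I, IV and V and for Nrf2 and glutathione go below 0.

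The members of the engineered and native MSC livers were then set side by side, to see how hepatocytes differed between the infusions. With 1 library each this compares 2 libraries and not the treatments, and no p-value is given. Among 5645 genes with at least 20 UMIs in the pair, 1052 (18.6%) were at least 2-fold higher and 862 (15.3%) at least 2-fold lower in engineered members, with a median log2 ratio of 0.14. The native members were deeper and had the higher mitochondrial share, and 16 of 18 held markers of other cells, against 128 of 468 engineered ones. The part of these differences in the result was not tested.

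Acute phase proteins, which hepatocytes secrete in inflammation, stood lower in the engineered members. Of 24 measured genes 22 were at least 2-fold lower and none 2-fold higher (median log2 ratio -2.05, and -1.59 among members with 5% or more mitochondrial UMIs). Of all measured genes 15.3% were at least 2-fold lower and 18.6% higher. Hp, haptoglobin that binds free haemoglobin, stood at 828 CPM in engineered and 8946 CPM in native members, 10.8-fold lower (95% counting interval 9.86 to 11.8), and was seen in 266 of 468 and 18 of 18 barcodes. Lcn2, lipocalin that binds bacterial iron carriers, stood at 140 CPM in engineered and 4237 CPM in native members (30.4-fold lower, 24.9 to 37.4), in 30 of 468 and 18 of 18 barcodes. The mt-poor barcodes had the same order, with 520 CPM of Hp and 105 CPM of Lcn2 in the engineered MSC liver and 4411 CPM of Hp and 3478 CPM of Lcn2 in the native MSC liver. Serpina3n, a protease inhibitor, stood at 31.1 CPM in engineered and 380 CPM in native members. Saa1, serum amyloid A, stood at 400 CPM in engineered and 1556 CPM in native members, with 41.7% of its engineered UMIs from 1 barcode.

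In the list of endoplasmic reticulum and integrated stress genes, 10 of 15 were at least 2-fold lower in the engineered members and none higher (median -1.63). Among all measured genes 15.3% were 2-fold lower and 18.6% higher. Hspa5, the chaperone BiP, stood at 224 CPM in engineered and 1430 CPM in native members, with 31.0% of its native UMIs from 1 barcode. Calr, the chaperone calreticulin, stood at 270 and 1297 CPM in engineered and native members. Hspa5 was seen in 104 of 468 engineered and 14 of 18 native members, and Calr in 114 and 13. Of 30 complement and coagulation genes 15 were 2-fold lower and 2 higher (median -0.96), among them C3, at 1019 CPM in engineered and 4940 CPM in native members.

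Several of the largest differences rested on few barcodes. Afp, the fetal albumin relative alpha-fetoprotein, stood at 8.72 CPM in engineered and 386 CPM in native members, seen in 7 of 468 and 11 of 18 barcodes. S100g, a calcium-binding protein, stood at 3.74 CPM in engineered and 294 CPM in native members, but all 51 native UMIs came from 1 barcode. Serpina7, the thyroxine-binding globulin, stood at 19.9 and 427 CPM, with 97.3% of the native UMIs from 1 barcode. Clu, clusterin, stood at 308 and 3972 CPM, and Spp1 at 167 and 2323 CPM, in engineered and native members, with 59.9% and 67.7% of native UMIs from 1 barcode. Of these 5 genes, Afp was thus the one spread over most native members without a single barcode above 30%.

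The genes with the highest ratios in engineered members included several metabolic enzymes. Car3, carbonic anhydrase 3, stood at 5132 CPM in engineered and 179 CPM in native members, 28.7-fold higher (20.2 to 42.3), in 409 of 468 and 11 of 18 barcodes. Selenbp2, a selenium-binding protein, stood at 1292 and 34.6 CPM (37.3-fold, 17.1 to 102). Elovl3, a fatty acid elongase, stood at 432 CPM in engineered members and had no UMI in native ones, at least 25.0-fold higher over the floor of 3 counts in their sum. Thrsp, a lipogenic nuclear protein, stood at 1001 and 40.4 CPM and Nudt7, a peroxisomal coenzyme A hydrolase, at 1643 and 98.0 CPM. Mt-poor barcodes differed in the same direction for Car3, with 7671 CPM in the engineered and 959 CPM in the native MSC liver, and for Selenbp2, with 1628 and 191 CPM.

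Periportal genes were among these, with 13 of 19 at least 2-fold higher and 1 lower in engineered members. Their median log2 ratio was 1.91, and 0.68 when each barcode counted alike. The 1 lower gene was Cps1, whose CPM are given above, with 225 native UMIs in the 5 to 20% band alone. Summed, the list stood at 7043 CPM in engineered and 4957 CPM in native members. Hal stood at 262 CPM in engineered and 28.8 CPM in native members (9.08-fold, 3.83 to 28.2), and Cyp2f2 at 308 and 40.4 CPM (7.63-fold, 3.65 to 19.2). Sds, serine dehydratase, stood at 233 and 17.3 CPM, on 187 and 3 UMIs, and its log2 ratio turned to -1.57 without marker barcodes, which left 2 native members. The native values of Hal, Cyp2f2 and Sds rest on 3 to 7 UMIs a gene. Of 20 pericentral genes 4 were at least 2-fold higher and 9 lower (median -0.04), where 18.6% and 15.3% of all measured genes were. Urea and amino acid genes were 2-fold higher in 14 of 24 and lower in 1 (median 1.12), with Gnmt, glycine methyltransferase, at 2133 CPM in engineered and 346 CPM in native members and Otc, the urea cycle carbamoyltransferase, at 1065 and 225 CPM, a log2 ratio that turned to -0.36 without marker barcodes.

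Of 21 Nrf2 and glutathione genes 6 were at least 2-fold higher and 2 lower in engineered members (median 0.60). Of all measured genes 18.6% were 2-fold higher and 15.3% lower, so the counts of this list were near the common shares. Gpx1, glutathione peroxidase, stood at 3275 CPM in engineered and 501 CPM in native members (6.53-fold, 5.27 to 8.18) and Cat, catalase, at 3411 and 997 CPM (3.42-fold, 2.93 to 4.01). Of 66 nuclear respiratory subunits 19 were at least 2-fold higher and none lower, and the medians by complex ran from 0.65 to 0.93. Major urinary protein genes were 2-fold higher in 7 of 9 (median 1.65), but they are near-identical copies whose reads can be split between them.

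**Figure D5:**
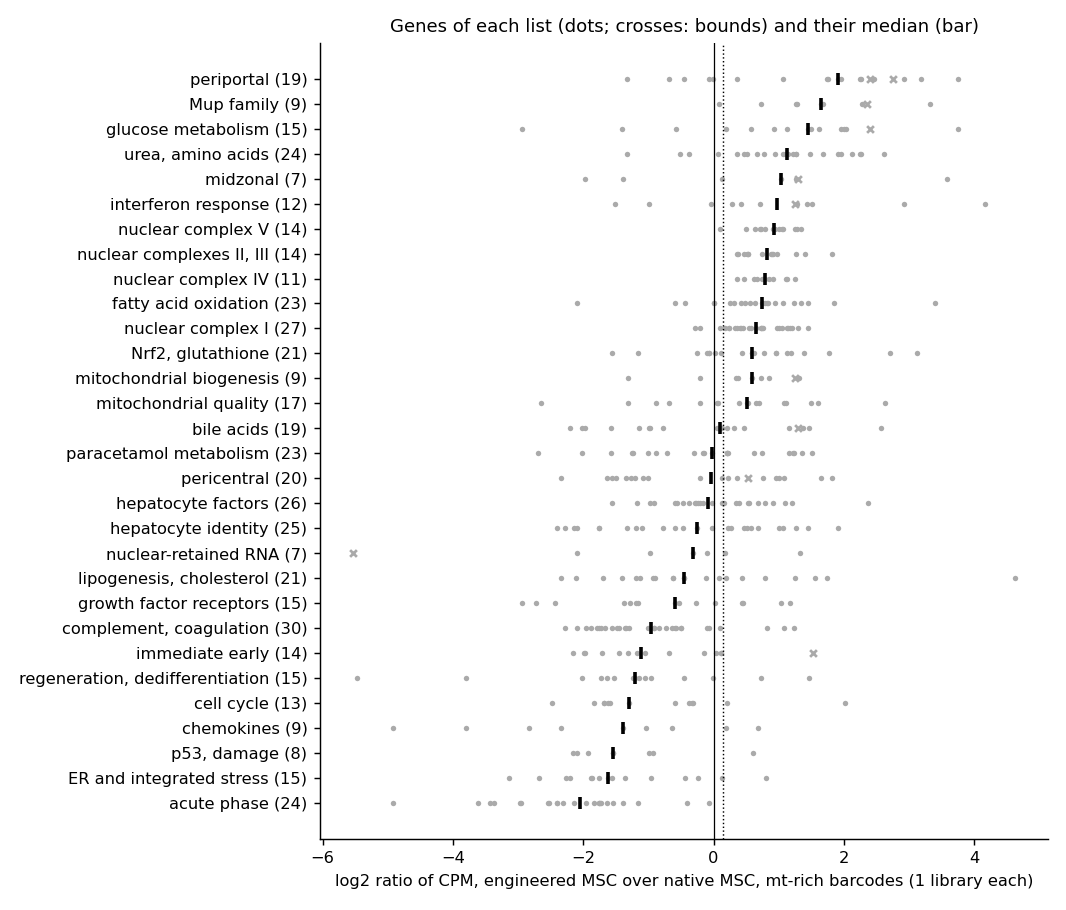
Log2 ratio of CPM in engineered over native members for each gene (dots; crosses are bounds for genes at 0) with the median of each list as a bar, and the median of all measured genes, 0.14, as a dotted line. Acute phase genes lie below 0 with a median of -2.05, periportal genes mostly above it with a median of 1.91.

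Against the PBS liver only abundant genes can be set, since its 2 members hold 2947 UMIs. Of 4914 genes measured, 53 (1.08%) were at least 2-fold higher and 574 (11.7%) lower in engineered members, and 3968 of the ratios were bounds. Of 1396 genes, 41 (2.94%) were higher and 256 (18.3%) lower in native members, 784 as bounds. Both comparisons share the PBS members. Over all measured genes the median log2 ratio was -3.92 for engineered and -1.88 for native over PBS members, bounds included. In the PBS members 1 UMI equals 339 CPM, so a gene at a low CPM in the other library passes as lower on 1 PBS UMI. The balance of higher and lower genes therefore cannot be read as a difference between the livers. Apoe, the apolipoprotein of remnant particles, stood at 5808 CPM in engineered, 14111 CPM in native and 38683 CPM in PBS members. Fth1, the ferritin heavy chain, stood at 13524, 9995 and 33254 CPM in engineered, native and PBS members. Both were highest in the PBS pair of barcodes.

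Mup20, the urinary protein darcin, stood at 8693 CPM in engineered and 1018 CPM in PBS members (8.54-fold, 2.92 to 41.4), on 3 PBS UMIs. Car3, with no UMI in the PBS members, was at least 5.04-fold higher in engineered ones. Hp stood at 8946 CPM in native and 1357 CPM in PBS members (6.59-fold, 2.57 to 24.2), and at 828 CPM in engineered members. Fga, the fibrinogen alpha chain, stood at 4104 CPM in native and 679 CPM in PBS members (6.05-fold, 1.67 to 50.0). The intervals against PBS are wide, and for most genes no difference was detectable at this depth.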

How the data were processed

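Per the series' labels, polyadenylated RNA of dissociated liver cells was captured on 10x beads, with 1 mouse per group. The authors deposited whole-number UMI counts per gene and barcode; per the submitters' processing notes they used Cell Ranger 7.1.0 and GRCm39. Here barcodes were gated as given above, symbols listed more than once were summed, and counts were summed per library and class. CPM divide by UMIs outside mitochondrial and haemoglobin genes. edgeR 4.0.16 (R 4.3.3) fitted mt-rich against mt-poor with TMM, filterByExpr and the library as a block, leaving out genes of the gate, with Benjamini-Hochberg adjustment at 0.05. DESeq2 1.42.0, scanpy 1.11.5 (Scrublet) and scipy 1.17.1 served alternatives and exact intervals; the code was tested on simulated data. No doublet caller was applied to the main values. The text names the 10 largest log2 fold changes with a mean of at least 20 CPM in the higher class. It also names the 8 largest ratios per pair of libraries on at least 50 UMIs, and up to 4 genes per list. Called list genes and gate genes were added. Members and lists were chosen with earlier results of these data known. Alternatives changed the gate, filters, scaling, block and tool. Strand use in counting is not given in the sources used here. Some results of the lists are not reported here.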

Additional observations from a re-analysis of the deposited data

Results flagged for a closer look

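The periportal gene list had a median log2 ratio of mt-rich over mt-poor CPM of 0.40 in the engineered MSC liver and of -0.53 in the native MSC liver. It was picked out because the 2 livers lay on opposite sides of 0 under the same contrast. There is 1 library per liver, and the difference was not tested. None of its 19 tested genes passed the edgeR test in either direction.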

How the results depend on the processing

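The share of members in the engineered MSC liver was 6.76% at a mitochondrial share of at least 1%, 1.90% at 5% and 3.94% with a limit of 20%. It was 4.79% with the highest Scrublet scores removed, 3.17% without barcodes holding other-cell markers and 2.97% at 1000 UMIs or more, the last chosen after seeing the data. With the 12 hepatocyte genes at 20% or more it was 0 in all 3 livers. Without barcodes holding markers the native share was 0.0193% and the PBS share 0, and at 5% mitochondrial UMIs the PBS share was 0.

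The count of genes higher and lower in mt-rich barcodes was 113 and 0 at 1%, 834 and 195 at 5%, 59 and 0 with a limit of 20%, 75 and 0 with DESeq2, and 70 higher with no low-count filter. Without the replicate block (the library) it was 60 and 0. Without TMM factors it was 450 and 12, and with PBS kept 10 were lower, both chosen after seeing the data. The cause of these shifts was not tested. All 249 genes, where tested, kept their sign under these fits. Apob had adjusted p = 0.0801 at 1%, 0.0550 with the limit of 20%, 0.333 without the filter and 0.0628 without the block. The gate at 20% hepatocyte genes and the removal of markers left too few native members for an edgeR fit, and leaving out a library leaves no residual degrees of freedom.

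Genes past 2-fold numbered 1036 in engineered against PBS members at 1%, and 127 in native against PBS members at 50 UMIs or more. In engineered against native members they numbered 1020 at 5%, 500 without marker barcodes and 959 at 50 UMIs or more. The log2 ratio of engineered over native members turned to -1.20 for Ndufb3, -1.57 for Scd1, -1.57 for Sds and -0.36 for Otc without marker barcodes, which left 2 native members, and to -2.03 for Tefm with each barcode counted alike. Atp5pd in engineered over PBS members turned to -0.63 at 1%. The 2 PBS and 18 native members limit all comparisons with them.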
